A study of Mus musculus with 6 samples.

Results

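Tubulin genes and one gene of a microtubule-binding protein were followed in cardiomyocytes of wild-type mice that carried an adeno-associated virus (AAV). The 9 genes were the beta-tubulin genes Tubb3, Tubb2a, Tubb2b, Tubb5 and Tubb6, the alpha-tubulin genes Tuba1a, Tuba1b and Tuba4a, and Mtap1a, now named Map1a. They were taken by symbol from a table of 23337 genes, and 9 of 9 were found. The set was selected on Tubb3 and Mtap1a being higher in the AAV-XBP1S libraries, so for these 9 genes every difference between AAV-XBP1S and AAV-GFP below is a description without a test. All 9 were among the 14587 genes that passed the filter on low counts, Tubb3 through the AAV-XBP1S and AAV-ATF6N libraries, since AAV-GFP held 6 counts of it.

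The mice were wild type in all 3 groups and received the virus at postnatal day 1, and their hearts were taken at 4 weeks of age. The virus carried GFP in the control group, XBP1S in the second group and ATF6N in the third, with 2 libraries in each. Both encode transcription factors that act when proteins misfold in the endoplasmic reticulum: XBP1S usually stands for XBP1 made from its spliced mRNA, and ATF6N for the part of ATF6 that enters the nucleus. Cardiomyocytes were released by perfusion of the heart and then sorted by fluorescence. The sources used here do not give the promoter of the virus, the mouse strain or the number of animals behind a library. P-values therefore measure only the spread between these libraries, which may be technical.

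Microtubules are hollow polymers of alpha- and beta-tubulin dimers. Each tubulin is encoded by several genes, the isotypes, which are nearly alike over most of their length and differ in the acidic tail at the carboxyl end. That tail faces the outside of the polymer and is where motors, microtubule-associated proteins and tubulin-modifying enzymes act. In most alpha-tubulins the last residue is a tyrosine that vasohibins remove and tubulin tyrosine ligase restores. In heart muscle cells the microtubules without this tyrosine bind the sarcomere network and stiffen the cell, and they are known to increase in failing hearts.

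The ends of the coding sequences are shown because many isotypes differ there, although close copies such as Tubb2a and Tubb2b differ little. Each line gives the last 60 coding bases before the stop codon, 5′ to 3′ on the gene's own strand, with the last codon in capitals, from GENCODE M21 transcripts on GRCm38 (mm10). Those of Tubb6, Tuba1a and Tuba1b are not reported here.
Tubb3: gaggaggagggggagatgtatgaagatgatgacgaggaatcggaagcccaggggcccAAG
Tubb2a: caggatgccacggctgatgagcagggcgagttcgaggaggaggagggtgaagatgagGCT
Tubb2b: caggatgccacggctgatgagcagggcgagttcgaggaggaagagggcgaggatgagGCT
Tubb5: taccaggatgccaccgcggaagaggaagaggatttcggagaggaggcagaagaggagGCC
Tuba4a: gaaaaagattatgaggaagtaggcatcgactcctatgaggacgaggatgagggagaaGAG

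In Tuba4a the last codon is GAG, for glutamate, so Tuba4a encodes an alpha-tubulin that lacks the final tyrosine from the start. The end of Tubb3, in which the last codon is AAG for lysine, differs from that of Tubb5 at 34 of 60 bases and from that of Tubb2a at 36. Tubb2a and Tubb2b differ at 3. Over the whole coding sequence Tuba1a and Tuba1b are 98.3% identical, Tubb2a and Tubb2b 96.5%, and Tubb3 and Tubb6 86.0%.

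Likeness over the whole transcript sets how well reads can be assigned to a gene, and so the certainty of each value. Of all stretches of 50 bases in the transcript, 0% in Tubb3, 0% in Tubb6 and 0.12% in Tubb5 also occur in a transcript of another gene. The share is 75.5% in Tuba1a and 83.1% in Tuba1b, both of which share with Tuba1c, and 49.6% in Tubb2a and 39.3% in Tubb2b, which share with each other. The sources used here do not say how reads that fit several places were treated, so levels of these 4 genes are uncertain. The level of Tuba4a is uncertain too, with 48.8% of its stretches shared, with Stk16 and a predicted gene, Gm12201. Exons of Tuba4a overlap those of Stk16 on the opposite strand over 633 bases, and exons of Mtap1a overlap those of Ppip5k1 over 272 bases. The kit does not mark strand, so reads in these overlaps cannot be told apart. The overlap of Mtap1a covers a small part of its 11912 bases.

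Total counts ran from 67702482 to 112049342 per library. The library that lay farthest from the rest was AAV-GFP replicate 1 (first principal component, 43.9% of the variance), with 0.337% of its counts on the ribosomal RNA precursor Rn45s against 0.0319% to 0.130% elsewhere. Levels are given as CPM, counts scaled to a common library total. Xbp1 ranged from 98.0 to 115 CPM in AAV-GFP, 160 to 166 for AAV-XBP1S and 145 to 152 for AAV-ATF6N. Atf6 ranged from 44.9 to 70.6, from 77.0 to 111 and from 158 to 162 CPM. Neither passed edgeR's test against AAV-GFP (adjusted p = 0.307 for Xbp1 in AAV-XBP1S and 0.126 for Atf6 in AAV-ATF6N). The 10 cardiomyocyte markers summed to 93896 to 143183 CPM in the 6 libraries, and 10 of 10 passed the filter. Of counts between 1 and 20, 73.5% to 77.1% were even numbers in each library. Both ends of a fragment may thus have been counted, and counting intervals below, which treat each count as independent, are then too narrow.

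Tubb3, the class III beta-tubulin known as a marker of neurons (chromosome 8, 123411564 to 123422010 on mm10), went from nearly nothing in AAV-GFP to a clear signal in AAV-XBP1S. The AAV-GFP libraries held 6 and 0 counts of it, the AAV-XBP1S libraries 1388 and 1220, and the AAV-ATF6N libraries 220 and 152. In CPM this was 0.0610 and 0, then 14.9 and 14.9, then 2.71 and 2.33. The 3 groups did not overlap: both AAV-XBP1S libraries were highest, both AAV-ATF6N libraries lay between, and both AAV-GFP libraries were at the bottom. From the summed counts the level in AAV-XBP1S was 422 times that in AAV-GFP, with a 95% exact interval of 194 to 1150 that covers counting error only. AAV-ATF6N stood at 71.8 times AAV-GFP (32.7 to 197), and AAV-XBP1S at 5.87 times AAV-ATF6N (5.27 to 6.56).

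The size of the Tubb3 difference rests on the 6 counts of AAV-GFP replicate 1. Fitted log2 fold changes were 8.70 (SE 0.69) for AAV-XBP1S and 6.13 (SE 0.66) for AAV-ATF6N, or 7.93 and 5.35 when AAV-GFP replicate 2 was left out. With replicate 1 left out instead, the control held no Tubb3 count. Against a floor of 3 counts in the remaining library, the mean level was 354-fold higher in AAV-XBP1S and 59.9-fold higher in AAV-ATF6N. These are not lower bounds, since the level in AAV-GFP replicate 1 was above that floor. The intervals given before reach down to 194 and 32.7. The authors' deposited tables give Tubb3 log2 fold changes of 8.75 in AAV-XBP1S and 6.24 in AAV-ATF6N. The gene that lies 820 bases from Tubb3 on the same strand, the melanocortin receptor gene Mc1r, had 0 to 2 counts in every library.

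Mtap1a encodes a large microtubule-associated protein that binds and stabilises microtubules, best known from the dendrites of neurons (chromosome 2, 121289602 to 121310832). Its level was 0.996 and 0.617 CPM in AAV-GFP, 6.28 and 8.48 CPM in AAV-XBP1S and 2.76 and 2.30 CPM in AAV-ATF6N. As with Tubb3, the groups did not overlap and AAV-ATF6N lay between the others. The level in AAV-XBP1S was 8.73 times that in AAV-GFP (95% exact interval 7.34 to 10.5, counting error only), and that in AAV-ATF6N 3.05 times (2.51 to 3.73). Fitted log2 fold changes were 3.18 (SE 0.37) for AAV-XBP1S and 1.64 (SE 0.36) for AAV-ATF6N, both over AAV-GFP, or 3.57 and 2.03 without AAV-GFP replicate 1 and 2.92 and 1.36 without replicate 2. The overlapping gene Ppip5k1 showed another pattern, at 24.4 and 57.2 CPM (AAV-GFP), 37.1 and 43.1 CPM (AAV-XBP1S) and 104 and 99.7 CPM (AAV-ATF6N).

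**Figure D1:**
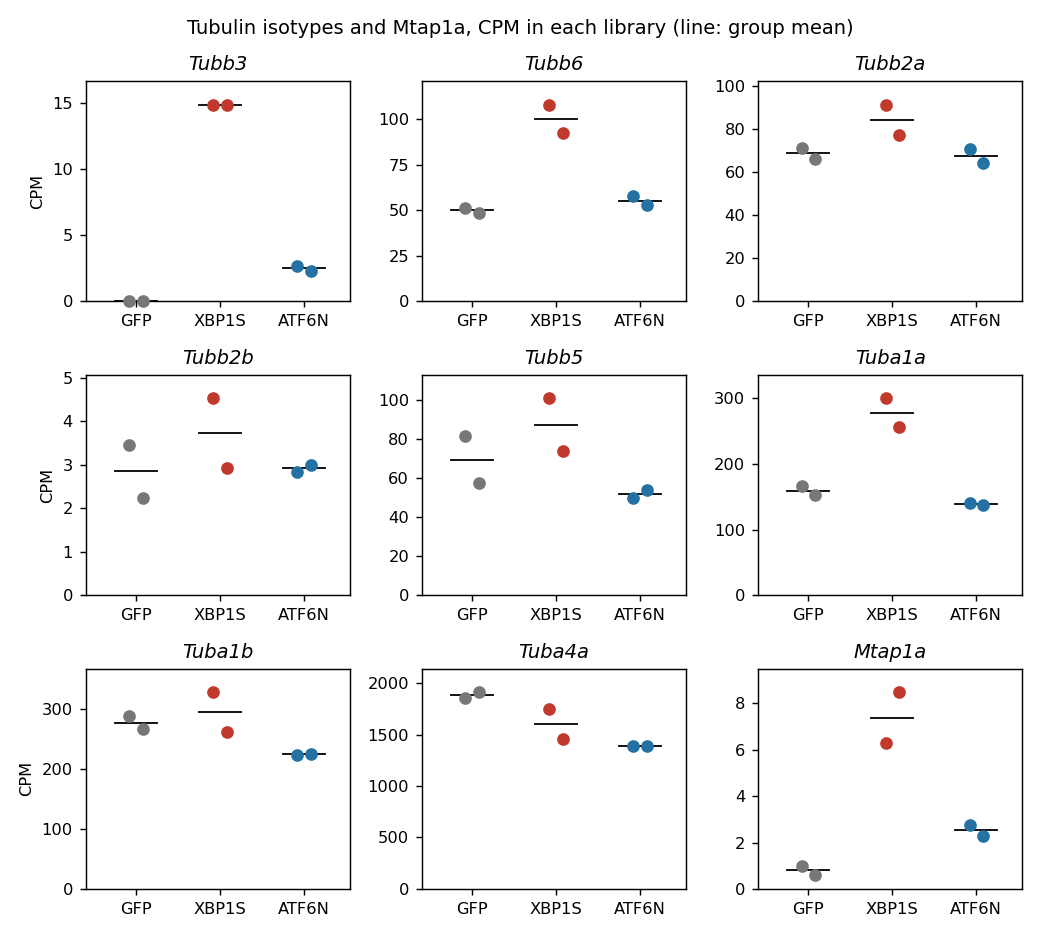
Level of each of the 9 genes in CPM (linear axes from 0, one scale per gene), with 1 point per library, 2 libraries per group, and a line at the group mean. Tubb3 and Mtap1a are highest in AAV-XBP1S and intermediate in AAV-ATF6N, Tubb6 and Tuba1a are high in AAV-XBP1S alone, and Tuba4a is lower in both treated groups.

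Tubb3 and Mtap1a are on different chromosomes, and the 250 bases before their annotated starts are shown because both genes were higher in the same libraries. They come from RefSeq on GRCm38.p6, each on the gene's own strand. Capitals mark CCAAT, the motif that the factor NF-Y binds, or its reverse complement. The promoters of 7 of the 9 genes were searched. No RefSeq promoter was found for Tubb2b, and that of Tubb6 was not searched and is not reported here.
Tubb3, chr8:123411303-123411552, plus strand: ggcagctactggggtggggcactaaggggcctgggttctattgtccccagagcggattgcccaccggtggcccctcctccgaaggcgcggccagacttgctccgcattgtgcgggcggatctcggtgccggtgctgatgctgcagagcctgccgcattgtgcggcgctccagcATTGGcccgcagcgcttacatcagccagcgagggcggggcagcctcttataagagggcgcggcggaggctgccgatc
Mtap1a, chr2:121289352-121289601, plus strand: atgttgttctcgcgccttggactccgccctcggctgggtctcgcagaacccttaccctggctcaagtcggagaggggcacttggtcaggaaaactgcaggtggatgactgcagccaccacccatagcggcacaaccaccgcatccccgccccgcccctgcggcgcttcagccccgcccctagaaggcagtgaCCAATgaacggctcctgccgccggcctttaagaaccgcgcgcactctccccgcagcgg

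Motifs were searched on both strands from 250 bases before to 50 after the start. CCAAT was found 1 time in each promoter, 77 bases before the start of Tubb3 on the minus strand and 58 bases before that of Mtap1a, and 37.4% of all 32851 promoters of this length hold it. CCACG, the core of the elements that XBP1 and ATF6 are known to bind, was not found in either window, while 32.8% of all promoters hold it. It was found 1 time each in Tubb2a, Tubb5 and Tuba1b. TGACGTGG, the longer XBP1 element (0.676% of promoters), and CCAAT followed after 9 bases by CCACG, the ER stress response element (0.119%), were in none of the 7 windows. CCAAT is part of the latter. A missing match says only that these letters are not in this window.

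Among the other beta-tubulin genes, Tubb6 stood out in AAV-XBP1S. Tubb6, the class V isotype (chromosome 18, 67390731 to 67402749), had 51.2 and 48.6 CPM in AAV-GFP, 108 and 92.4 CPM in AAV-XBP1S and 57.7 and 52.7 CPM in AAV-ATF6N. Both AAV-XBP1S libraries lay above all others, a ratio of means of 2.01 over AAV-GFP (log2 fold change 1.01, SE 0.20). AAV-ATF6N was 1.11 times AAV-GFP, and the libraries did not overlap there either, but by a small margin. Direct comparison of AAV-ATF6N with AAV-XBP1S gave a log2 fold change of -0.86 (SE 0.20), which did not pass edgeR's quasi-likelihood test over all genes (adjusted p = 0.125).

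Tubb2a, Tubb2b and Tubb5 differed less. Tubb2a, a class II isotype of brain and many other tissues (chromosome 13, 34074280 to 34078008), had 71.3 and 66.4 CPM in AAV-GFP, 91.5 and 77.3 CPM in AAV-XBP1S and 71.0 and 64.4 CPM in AAV-ATF6N. Its close copy Tubb2b (chromosome 13, 34127008 to 34130354) was sparse, with 2.24 to 4.52 CPM over all 6 libraries and overlap between every pair of groups. Tubb5, the widely expressed class I isotype (chromosome 17, 35833920 to 35838301), had 81.8 and 57.4 CPM in AAV-GFP, 101 and 74.2 CPM in AAV-XBP1S and 50.1 and 54.2 CPM in AAV-ATF6N. The AAV-GFP libraries were farther apart from each other than their mean (69.6) was from that of AAV-XBP1S (87.7) or AAV-ATF6N (52.2). Its log2 fold change in AAV-XBP1S was 0.33 (SE 0.26), and 0.61 without AAV-GFP replicate 1 or 0.13 without replicate 2.

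Tuba1a was the alpha-tubulin gene with more signal in AAV-XBP1S. Tuba1a, the main alpha isotype of developing neurons (chromosome 15, 98949847 to 98953501), had 166 and 152 CPM in AAV-GFP, 300 and 256 CPM in AAV-XBP1S and 141 and 137 CPM in AAV-ATF6N. The AAV-XBP1S libraries lay above both other groups, with a ratio of means of 1.75 over AAV-GFP (log2 fold change 0.81, SE 0.19). Tuba1a was lower in AAV-ATF6N than in AAV-XBP1S, with means of 139 and 278 CPM, and edgeR's adjusted p was 0.0911, above 0.05. This comparison moved past the threshold in 6 of 11 alternative settings, among them DESeq2 (adjusted p = 0.000551), no filter on low counts (0.0360), the replicate number as a block (0.0485) and leaving out either AAV-GFP library (0.0256 and 0.0241).

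Its near copy Tuba1b, a widely expressed isotype in the same cluster (chromosome 15, 98931431 to 98934390), did not follow. It had 288 and 267 CPM in AAV-GFP, 328 and 262 CPM in AAV-XBP1S and 224 and 225 CPM in AAV-ATF6N, and AAV-XBP1S overlapped with AAV-GFP (log2 fold change 0.09, SE 0.20). The difference between Tuba1a and Tuba1b in their response was not tested. Tuba4a, the isotype without the final tyrosine codon, known from striated muscle (chromosome 1, 75214974 to 75219253), was the most abundant of the 9. Its libraries had 1859 and 1912 CPM in AAV-GFP, 1751 and 1458 CPM in AAV-XBP1S and 1394 and 1393 CPM in AAV-ATF6N. Both treated groups lay below AAV-GFP, by log2 fold changes of -0.23 (SE 0.18) and -0.44 (SE 0.18).

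**Figure D2:**
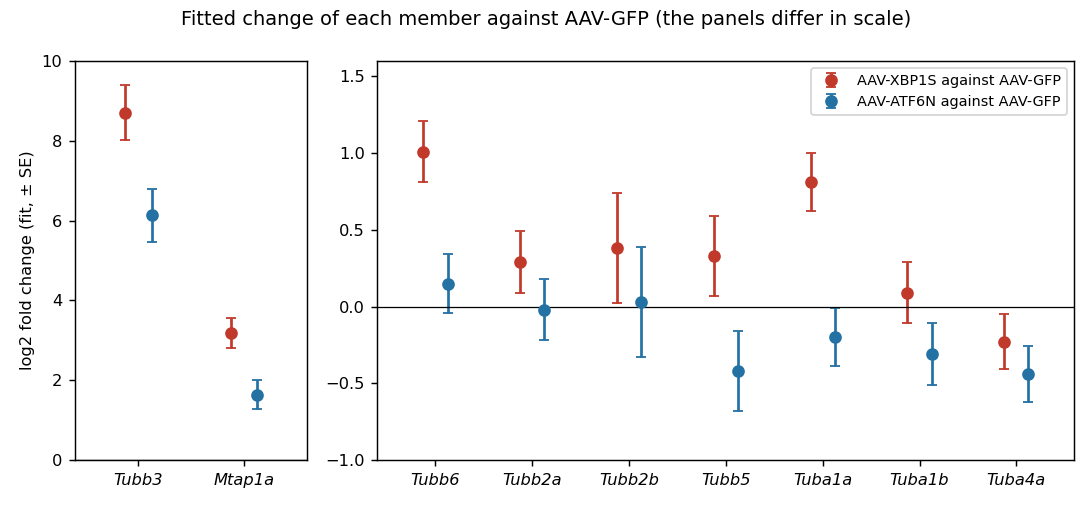
Log2 fold change of each gene over AAV-GFP from the fit, with bars of 1 SE, in AAV-XBP1S (red) and AAV-ATF6N (blue); the left panel holds Tubb3 and Mtap1a on a wider scale. Tubb6 at 1.01 and Tuba1a at 0.81 are the other genes with the highest values in AAV-XBP1S, while in AAV-ATF6N all 7 genes of the right panel lie between -0.44 and 0.15. Both comparisons share the AAV-GFP libraries.

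Counted over the 9 genes, both AAV-XBP1S libraries lay above both AAV-GFP libraries in 5 (Tubb3, Mtap1a, Tubb6, Tuba1a and Tubb2a) and below in 1 (Tuba4a), where 19.1% and 16.8% of all genes tested did so. Tubb3 and Mtap1a, on which the set was chosen, were the 2 past edgeR's threshold as higher, against 0.178% of all genes, and none was past it as lower, against 0.137%. The rule for the set used this comparison, so nothing is read from these counts. The median log2 fold change was 0.38 over the 9 genes and -0.01 over all genes.

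Against AAV-GFP, AAV-ATF6N lay above in 3 of the 9 genes (Tubb3, Mtap1a and Tubb6; 27.9% of all genes) and below in 4 (Tubb5, Tuba1a, Tuba1b and Tuba4a; 26.7%), and the median log2 fold change was -0.02 both for the 9 and for all genes. The 7 genes other than Tubb3 and Mtap1a were tested here, although the AAV-GFP libraries are those the rule used. Of these, 0 passed edgeR's quasi-likelihood test at an adjusted p of 0.05, 0 had an unadjusted p under 0.05 (13.5% of all genes did), and 0 passed with DESeq2 (4.08% of all genes). Adjusted p from edgeR ran from 0.372 (Tuba4a) to 0.972 (Tubb2b). With a gene-length offset Tuba1a had a log2 fold change of 0.04 in place of -0.20, and Tubb2a 0.21 in place of -0.02. Over all genes 0.350% were called higher and 0.165% lower. The authors' deposited table gives these 7 adjusted p-values from 0.488 to 0.988.

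Between the treatments, AAV-ATF6N lay below AAV-XBP1S in 8 of the 9 genes, Tubb2b being the exception, against 26.8% of all genes, and above in 0, against 30.1%. For the 2 genes chosen for high AAV-XBP1S values this direction follows in part from the choice. Among the other 7 it held for 6. These 7 were tested, although the AAV-XBP1S libraries are those the rule used. The test shares its estimate of the spread over all 3 groups, and their replicates differed unequally. Against counting noise, chi-square per degree of freedom was 678 in AAV-GFP, 260 in AAV-XBP1S and 11.1 in AAV-ATF6N. Of these 7, 0 passed edgeR's test, and 3 had an unadjusted p under 0.05 (Tuba1a, Tubb6 and Tubb5), as did 13.2% of all genes. With DESeq2 2 passed (Tuba1a and Tubb6, adjusted p = 0.00640 for the latter), against 5.75% of all genes. Tubb5 had a log2 fold change of -0.75 (SE 0.26) and an edgeR adjusted p of 0.285. Over all genes 0.171% were called higher and 0.0548% lower. With a gene-length offset the split of calls over all genes was 113 higher and 210 lower for AAV-XBP1S against AAV-GFP, in place of 26 and 20, and 281 and 267 between the treatments, in place of 25 and 8.

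The isotypes were then compared with each other per kilobase of the deposited gene length, which allows levels of different genes to be set side by side. Among the 3 alpha genes of the set, Tuba4a led in all 6 libraries at 679 to 931 CPM per kb. Tuba1b came next with 171 and 184 CPM per kb in AAV-GFP, above Tuba1a with 95.5 and 104. In AAV-XBP1S the ranges of Tuba1b (168 and 210) and Tuba1a (161 and 189) overlapped. Tubb2a, Tubb6 and Tubb5 held 18.9 to 62.1 CPM per kb. Within AAV-GFP their order was Tubb2a, then Tubb6 and Tubb5 without separation, whereas in AAV-XBP1S Tubb6 (53.0 and 62.1) and Tubb2a (48.1 and 57.0) overlapped. Tubb3 reached 8.65 and 8.66 CPM per kb in AAV-XBP1S, above Tubb2b at 1.52 and 2.35. Mtap1a stayed at 0.0518 to 0.712 CPM per kb.

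As shares of the beta-tubulin pool, summed over 8 beta genes per kilobase, Tubb3 made up 0.0118% and 0% of AAV-GFP, 2.37% and 2.89% of AAV-XBP1S and 0.617% and 0.543% of AAV-ATF6N. Tubb6 held 9.82% and 10.5%, then 17.0% and 17.7%, then 13.0% and 12.1%. Most of the pool was Tubb4b, a widely expressed class IV isotype outside the 9 genes, at 63.7% and 64.5% of AAV-GFP, 53.3% and 52.6% of AAV-XBP1S and 60.6% and 61.9% of AAV-ATF6N. Its level itself had a log2 fold change of -0.04 (SE 0.20) in AAV-XBP1S. Of the Tubb4b transcript 55.5% of 50-base stretches occur in other genes' transcripts, Tubb4b-ps1 and Tubb4b-ps2 among them, so its share is uncertain.

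In the alpha-tubulin pool Tuba1a went from 6.86% and 6.41% in AAV-GFP to 12.5% and 12.9% in AAV-XBP1S, with 7.61% and 7.39% in AAV-ATF6N. Its near copy Tuba1b held 12.1% and 11.5%, then 13.9% and 13.4%, then 12.3% and 12.3%, so its share was also highest in AAV-XBP1S, by less. Tuba4a held 59.6% and 62.5%, then 56.3% and 56.8%, then 58.5% and 58.1%. Tuba8, another isotype without a final tyrosine codon (its last is TTT, for phenylalanine), held 20.3% and 18.6%, 16.1% and 15.8%, and 19.7% and 20.5%. AAV-GFP and AAV-XBP1S did not overlap in any of these shares, which are parts of the same sum and so not separate observations. In CPM, both AAV-XBP1S libraries lay above both AAV-GFP libraries in 19.1% of all genes tested and below in 16.8%.

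**Figure D3:**
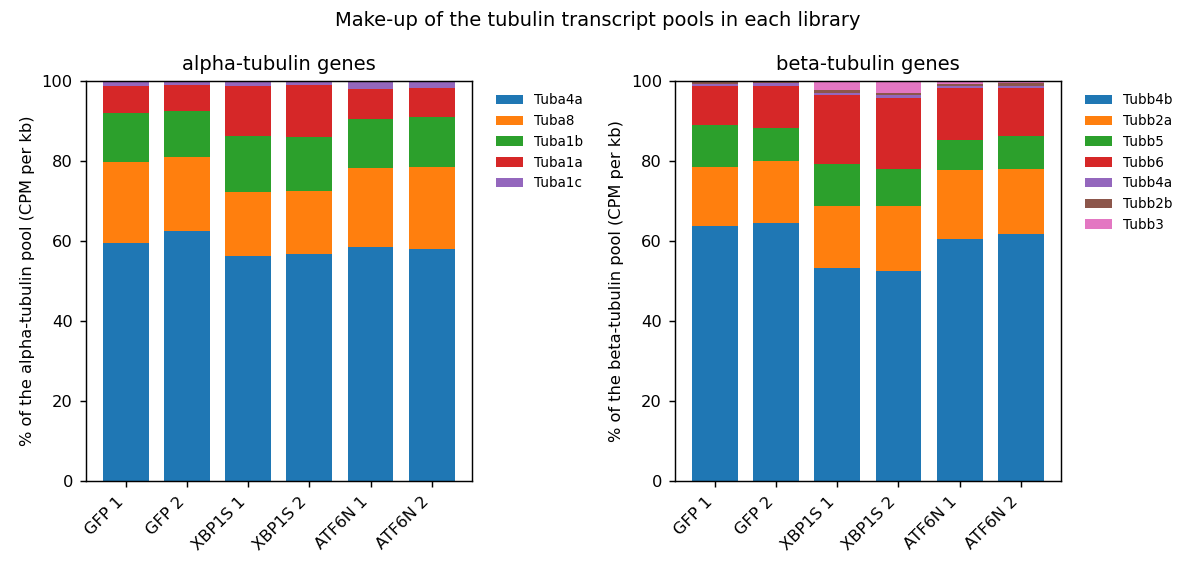
Share of each gene in the alpha-tubulin (left) and beta-tubulin (right) pool of every library, in percent of CPM per kilobase, leaving out genes with very small shares. Tuba4a and Tubb4b form most of the pools in all 6 libraries. Tuba1a, Tubb6 and Tubb3 take larger shares in both AAV-XBP1S libraries, and so does Tuba1b by a smaller margin.

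The genes with the most similar pattern were found as those with the smallest root mean square difference in log2 CPM over the 6 libraries, after each gene's own mean was subtracted, among 11060 genes. For Mtap1a these were Cd24a (0.27 log2 units), Ndc80 (0.34), Cdk1 (0.40), Ncrna00086 (0.41) and Nusap1 (0.43). Ndc80 encodes a kinetochore protein, Cdk1 the kinase that drives entry into mitosis and Nusap1 a spindle protein. For Tubb3 no gene was as close. The nearest were Spag5 (1.42), Krt8 (1.47), Bhlha15 (1.63), Slc17a9 (1.64) and Tnni1 (1.74).

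The rest of the microtubule system was described with 7 lists of genes, chosen with earlier results of these data known. In 6 of them, which cover the other tubulins, tubulin folding, tubulin modification, structural microtubule-associated proteins, microtubule ends with severing and nucleation, and motors, 0 of 125 genes tested passed edgeR's test in any of the 3 comparisons. Of all genes 0.178% and 0.137% were called higher and lower for AAV-XBP1S, and 0.350% and 0.165% for AAV-ATF6N, both against AAV-GFP. Between the treatments the shares were 0.171% and 0.0548%. With shares this small a count of 0 in 125 is near the background. With an unadjusted p under 0.05 there were 7 genes (5.60%) in AAV-XBP1S against AAV-GFP, where 11.6% of all genes tested had one, and 12 (9.60%, against 13.5%) in AAV-ATF6N against AAV-GFP. The structural microtubule-associated proteins went the other way in AAV-XBP1S, with 5 of 18 (27.8%). DESeq2 called 2 of the 125 in AAV-XBP1S (3.56% of all genes) and 1 in AAV-ATF6N (4.08% of all genes). Between the treatments 12 had an unadjusted p under 0.05 in edgeR (9.60%, against 13.2%), and DESeq2 called 3 (5.75% of all genes). The median log2 fold changes of these lists ran from -0.19 to 0.10 in AAV-XBP1S and from -0.22 to 0.25 in AAV-ATF6N.

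Of the structural microtubule-associated proteins, Mtap1b, the close relative of Mtap1a known from growing axons, had 16.3 and 12.0 CPM in AAV-GFP, 30.6 and 28.4 CPM in AAV-XBP1S and 15.8 and 20.6 CPM in AAV-ATF6N. Its log2 fold change in AAV-XBP1S was 1.06 (SE 0.25), with an edgeR adjusted p of 0.210, and it was called by DESeq2. Mtap7d1, which recruits kinesin to microtubules, had -0.68 (SE 0.18) with an edgeR adjusted p of 0.237, and DESeq2 called it too. In AAV-ATF6N the list's genes of smallest p were Mtus2 (-0.62, SE 0.25; edgeR adjusted p = 0.358) and Mtus1 (0.83, SE 0.35; 0.374). 

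Of the enzymes that modify tubulin, Ttll1, which adds glutamates to the tail, had log2 fold changes of -0.71 (SE 0.28; edgeR adjusted p = 0.411) for AAV-XBP1S and -0.92 (SE 0.28; 0.291) for AAV-ATF6N. The vasohibin gene Vash2 had 2.24 (SE 1.14; 0.516) in AAV-XBP1S, from levels of 0.0610 to 1.32 CPM. Vash1, the other vasohibin gene, was of smallest p between the treatments (-2.27, SE 0.76; 0.262). It had 14.3 and 3.41 CPM in AAV-GFP and 2.19 and 1.58 in AAV-ATF6N. The fitted difference from AAV-GFP was -2.23 on the log2 scale (SE 0.75; edgeR adjusted p = 0.319), and DESeq2 called it. In AAV-XBP1S it had 13.4 and 4.83 CPM. Within both AAV-GFP and AAV-XBP1S the replicates of Vash1 were far apart, with replicate 1 high.

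Of the other tubulins, Tuba8 had a log2 fold change of -0.40 (SE 0.20; edgeR adjusted p = 0.498) and Tubd1, a centriole tubulin, 0.40 (SE 0.20; 0.520) in AAV-XBP1S. Tubb4a had -0.75 (SE 0.25; 0.318) in AAV-ATF6N against AAV-GFP and -0.97 (SE 0.25; 0.172) against AAV-XBP1S. Tubg1, a gamma-tubulin of the nucleating complex, had -0.56 (SE 0.20; 0.332) in AAV-ATF6N. The folding genes of smallest p in AAV-XBP1S were the prefoldin gene Pfdn2 (-0.73, SE 0.36; 0.499) and Arl2 (-0.69, SE 0.35; 0.515). In both genes AAV-XBP1S overlapped with AAV-GFP, where replicate 1 was above replicate 2 (66.5 against 32 CPM for Pfdn2, 144 against 81.1 CPM for Arl2). In AAV-ATF6N the folding genes of smallest p were Arl2 (-0.77, SE 0.35; 0.382) and H2-Ke2, the older symbol of the prefoldin gene Pfdn6 (-0.87, SE 0.41; 0.384). Among motors those of smallest p in AAV-XBP1S were Dynll2 (-0.76, SE 0.35; 0.470) and Klc4 (-0.40, SE 0.19; 0.479), and among genes of microtubule ends Camsap1, which protects minus ends (-0.65, SE 0.25; 0.405), and the stathmin gene Stmn4 (-2.13, SE 1.14; 0.533). In AAV-ATF6N the genes of smallest p in the other lists were Agbl2, a tubulin deglutamylase gene (1.17, SE 0.35; 0.283), Ckap5, a microtubule polymerase (0.97, SE 0.31; 0.302), the plus-end protein gene Clip1 (0.60, SE 0.22; 0.342), Dctn4 of the dynactin complex (0.61, SE 0.21; 0.324) and the kinesin Kif1c (-1.40, SE 0.55; 0.358).

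In the mitotic spindle list edgeR called 4 of 26 genes higher in AAV-XBP1S and 0 lower, where 0.178% and 0.137% of all genes were called. The median log2 fold change was 2.70, against -0.01 over all genes. Above 0 lay 25 of 26, against 48.8% of all genes. Spag5, a spindle and kinetochore protein, had 2 counts in each AAV-GFP library, then 199 and 157 counts in AAV-XBP1S and 118 and 140 counts in AAV-ATF6N. It rose in AAV-XBP1S with a log2 fold change of 6.33 (SE 0.58; edgeR adjusted p = 0.0137), a size that rests on those 4 control counts. Like Tubb3, Spag5 passed the filter on low counts through the AAV-XBP1S and AAV-ATF6N libraries. Its call in each treatment is therefore a description and not a test. In both treatments the 4 edgeR calls and the DESeq2 calls given for this list include Spag5. The list itself was chosen with earlier results of these data known, so its counts are a description too. Birc5 (3.35, SE 0.38; 0.0301), Nusap1 (3.06, SE 0.37; 0.0371) and the proliferation marker Mki67 (2.83, SE 0.37; 0.0447) rose as well. An unadjusted p under 0.05 was found for 20 of the 26 (76.9%, against 11.6% of all genes). DESeq2 called 20 (3.56% of all genes). With no filter on low counts edgeR called 15, where 233 of 18423 genes were called over all. With a replicate block it called 13, where 165 of 14587 genes were called over all. As over all genes, calls in the list rose without an AAV-GFP library and fell or vanished without a treated library.

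In AAV-ATF6N edgeR also called 4 of the 26 higher and 0 lower (0.350% and 0.165% of all genes). The median was 2.37, against -0.02 over all genes, and 26 of 26 lay above 0, against 48.7%. The 4 called were Spag5 (6.15, SE 0.58; edgeR adjusted p = 0.0153, with the limit given above), Birc5 (2.87, SE 0.38; 0.0401), the kinesin Kif4 (3.03, SE 0.42; 0.0458) and Top2a (4.38, SE 0.61; 0.0462). DESeq2 called 16 (4.08% of all genes). With no filter edgeR called 16, where 348 of 18423 genes were called over all. With the block it called 12, where 237 of 14587 genes were called over all. Calls in the list again rose without an AAV-GFP library, as calls over all genes did, and vanished without any library of the treated groups. Between the treatments 0 of 26 passed edgeR's test, where 0.171% of all genes were called higher and 0.0548% lower. With shares this small a count of 0 in 26 is near the background. In edgeR 0 had an unadjusted p under 0.05 (13.2% of all genes), and DESeq2 called 0 (5.75%). Levels of these genes were low, such as 7.05 and 4.36 CPM for Mki67 in AAV-XBP1S against 0.681 and 0.926 in AAV-GFP.

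**Figure D4:**
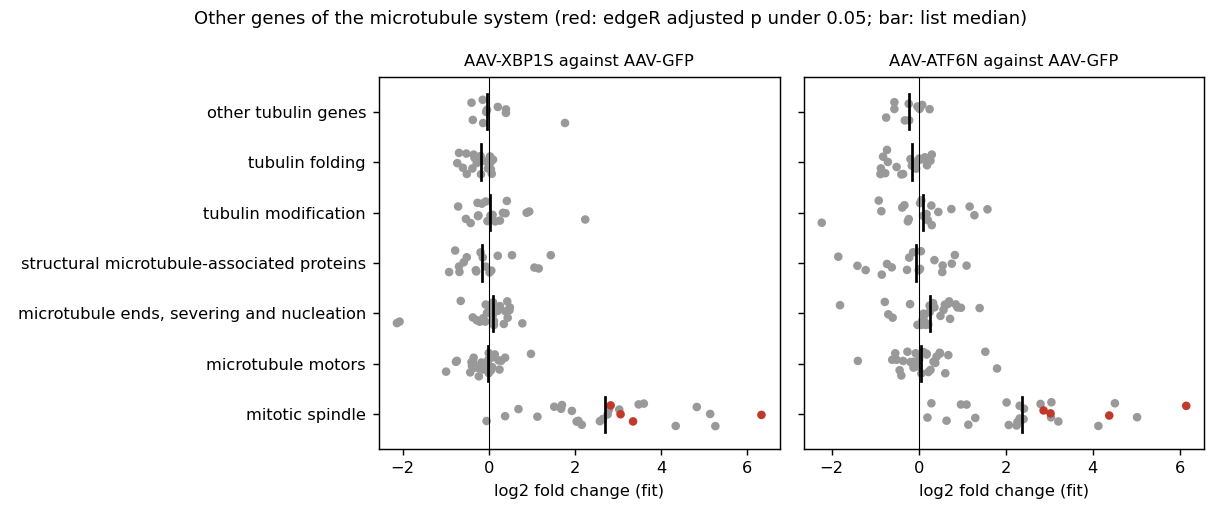
Log2 fold change over AAV-GFP of each gene tested in the 7 lists, with red points for edgeR adjusted p under 0.05 and a bar at the list median, for AAV-XBP1S (left) and AAV-ATF6N (right). The spindle genes lie to the right in both panels with medians of 2.70 and 2.37, and the other 6 lists are centred near 0. The panels share the AAV-GFP libraries.

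Summed levels of markers of other cell types are given beside the tubulins, several of which those cells also express. Of single markers edgeR called 1 of 10 epicardial and mesothelial genes tested higher in AAV-XBP1S, Krt18, where 0.178% of all genes were called higher. In AAV-ATF6N it called 1 of 4 erythroid genes tested lower, where 0.165% of all genes were called lower. No other marker in any of the lists was called against AAV-GFP. Summed over 10 genes each, endothelial markers had 645 to 918 CPM in AAV-GFP, 1055 to 1392 in AAV-XBP1S and 577 to 621 in AAV-ATF6N. Fibroblast markers had 559 to 656, 921 to 1047 and 847 to 885 CPM. Epicardial and mesothelial markers had 8.75 to 12.3, 37.5 to 46.6 and 20.3 to 22.4 CPM, of which Krt8 alone gave 19.1 and 24.5 CPM in AAV-XBP1S. Macrophage and leukocyte markers had 40.3 to 41.2, 52.2 to 62.5 and 55.0 to 55.1 CPM. Smooth muscle and pericyte markers had 965 to 1082, 1102 to 1202 and 1286 to 1334 CPM, and 6 erythroid markers 131 to 277, 70.5 to 106 and 41.0 to 42.1 CPM. The cardiomyocyte markers had 115218 to 119123, 93896 to 102872 and 140838 to 143183 CPM. Whether these cells had a part in the values of Tuba1a, Tubb6, Tubb5 and Tubb2a was not tested, and fewer cells of a type and less RNA per cell cannot be told apart in these libraries.

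Beside Tubb3, markers of nerve cells are given. The 14 neuronal markers summed to 16.2 to 27.1 CPM in AAV-GFP, 17.7 to 23.6 in AAV-XBP1S and 16.9 to 17.4 in AAV-ATF6N. AAV-GFP overlapped with both treated groups, and AAV-XBP1S lay above AAV-ATF6N. Most of this came from Uchl1, Dbh and Stmn2. Snap25, Syt1 and Rbfox3 had 0 counts in all 6 libraries, and the neurofilament genes Nefl, Nefm and Nefh 0 to 13 in any library. The 8 Schwann cell markers summed to 5.99 to 6.86 CPM in AAV-GFP, 9.89 to 11.0 in AAV-XBP1S and 6.38 to 7.29 in AAV-ATF6N.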

How the data were processed

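Gene expression was measured by sequencing of polyadenylated RNA from sorted mouse cardiomyocytes in 6 libraries, 2 per group. Per the labels' protocols, cDNA was made with a SMART-Seq kit and libraries with Nextera XT. The main deposited table gives raw read counts as whole numbers for each gene, and the submitters' processing notes name STAR, featureCounts and the build mm10. The tables of the authors' comparisons hold a log2 fold change, its error and Wald statistic as scores, and p-values, per the file headers. The notes name DESeq2 and DESeq. All 6 count columns were used.

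Genes were kept with filterByExpr (count minimum 10), which left 14587 of 23337. edgeR 4.0.16 (R 4.3.3) was fitted with TMM normalization and the group as the only term to all 6 libraries (3 residual degrees of freedom), and the quasi-likelihood test was adjusted by Benjamini-Hochberg over all genes tested (threshold 0.05). SE is the log2 fold change divided by the square root of F. CPM use TMM-adjusted library sizes, in which 3 counts are 0.0305 to 0.0459 CPM. With 2 libraries a group the smallest exact permutation p is 0.333, so no such test was used. The script was tested on simulated data.

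The genes and lists were chosen with earlier results of these data known. Named were all 9 genes, and of each list the genes past the threshold (at most 4) or else the 2 of smallest p, for each treatment against AAV-GFP. Between the treatments the lists are given mostly as counts. Older symbols were matched through RefSeq synonyms. No protein sequences were used. DESeq2 (1.42.0), RLE normalization, no filter, a replicate block, a gene-length offset and leaving out each library were tried as alternatives.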

Additional observations from a re-analysis of the deposited data

How the results depend on the processing

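Of 297 log2 fold changes of the 9 genes under alternatives, 14 lay over 1 SE from the reported value, 8 of them without an AAV-GFP library (Tubb3, Mtap1a and Tubb5) and 6 with the gene-length offset (Tuba1a, Tuba1b and Tubb2a, each in AAV-ATF6N against both other groups). Without AAV-GFP replicate 1 the fitted values of Tubb3 were 13.19 and 10.63, with no control count behind them. The sign turned in 7, including Tuba1b in AAV-XBP1S (0.09 to -0.03 without replicate 1). Tubb2b went from 0.38 to 0.08 or 0.67 without an AAV-XBP1S library. Calls of Tuba1a and Tubb6 between the treatments were gained in 9 cases. Counts of calls over all genes depended much more on the setting. For the comparisons of AAV-XBP1S with AAV-GFP, of AAV-ATF6N with AAV-GFP and of the treatments with each other, in this order, there were 46, 75 and 33 calls. Without a filter on low counts there were 233, 348 and 458, with DESeq2 520, 595 and 839, and with the gene-length offset 323, 218 and 548. Leaving out 1 library gave 2 to 322, 6 to 3055 and 1 to 717, the most without an AAV-GFP library. The cause was not tested.

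With the replicate block there were 165, 237 and 356 calls. The labels do not say that a number marks a shared litter or day, and deviations of replicate 1 correlated across genes at 0.379 between AAV-GFP and AAV-XBP1S, -0.0402 between AAV-GFP and AAV-ATF6N and -0.0480 between AAV-XBP1S and AAV-ATF6N, so the numbers were not taken as pairs. Among the tested values of the 7 genes the block changed the call of Tuba1a between the treatments (adjusted p = 0.0485).

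Shares of the tubulin pools also depended on what was summed: as raw counts without length correction Tubb3 held 2.60% of the beta pool in AAV-XBP1S on average, and 5.67% when the pool was limited to the 5 beta genes described, against 2.63% per kilobase over all 8.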
